A study of Caenorhabditis elegans with 4 samples.

Results

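The 9 genes described here make and break down trehalose or belong to the glyoxylate cycle and to the alcohol dehydrogenases beside it. They were chosen by name from the deposited table of read counts, which lists 19913 genes, and all 9 names were found. The trehalose genes are the synthases *tps-1* and *tps-2* and the trehalases *tre-1*, *tre-2*, *tre-3* and *tre-5*. The other rows are *gei-7*, *icl-1* and *sodh-1*. Either *gei-7* or *icl-1* was to stand for the glyoxylate enzyme, and the table holds a row of each name, so both are given. The current annotation (WBcel235) uses the name *icl-1* for the gene long known as *gei-7*, and which gene the row *icl-1* counted is not settled. No role is given to that row below.

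RNA of whole *Caenorhabditis elegans* larvae of the first stage (L1) was sequenced from 2 strains. One is *pry-1(mu38)*, which carries a nonsense allele of the gene for the Axin scaffold protein PRY-1, and the other is the wild type N2. Each strain has 2 libraries, and the animals of both were synchronized by successive bleach treatments. Whether the larvae had been fed before collection is not stated in the labels. The study set out to find genes that respond to *pry-1*, and the one comparison of the design is *pry-1(mu38)* against N2.

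Trehalose is a sugar made of a pair of glucose units, which worms store and use for protection against drying, heat and osmotic stress. Trehalose-6-phosphate synthases make its phosphate from glucose units, a phosphatase removes the phosphate, and trehalases split the sugar back into glucose. The glyoxylate cycle is a bypass of the TCA cycle that turns acetyl-CoA from fat into precursors of glucose. Among animals the nematodes are known for it, and in *C. elegans* its reactions are carried by a fused enzyme with an isocitrate lyase and a malate synthase part, encoded by *gei-7*. Embryos, dauer larvae and L1 larvae that hatch without food rely on fat and on this route, and for that reason the genes can be read as markers of the fed or the arrested state.

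Levels are given as CPM, the counts of a gene scaled to the size of its library after adjustment of that size by the TMM method of edgeR. Log2 fold changes are positive where *pry-1(mu38)* was higher. Unless another test is named, p-values come from edgeR's quasi-likelihood test (QL test), adjusted by the Benjamini-Hochberg method over all genes tested. The libraries held 32310798 and 31418682 counts on genes in *pry-1(mu38)*, against 27741375 and 33230854 in N2. The gene *pry-1* had 3812 and 3471 counts in *pry-1(mu38)* and 1926 and 2048 counts in N2. A nonsense allele need not lower the count, so this does not check the labels. Across the genes tested, the log2 levels of the 2 *pry-1(mu38)* libraries differed with an SD of 0.457, and those of the N2 libraries with an SD of 0.801. N2 replicate 2 stood farther from the *pry-1(mu38)* libraries, at an SD of 1.16 and 0.875, than N2 replicate 1 did, at 0.714 and 0.545. Markers of intestine, hypodermis, body wall muscle, neurons and germ line precursors had counts in all 4 libraries. None of the 7 body wall muscle markers passed the QL test at an unadjusted p under 0.05, and their summed level was 15661 and 15652 CPM in *pry-1(mu38)*, against 15595 and 28369 CPM in N2 replicates 1 and 2. Of 13 tested markers of adults, oocytes and sperm, 9 were higher in *pry-1(mu38)* at an unadjusted p under 0.05, against 5.93% of all genes tested, among them all 6 vitellogenins, which encode yolk proteins and which the study named from these samples. The vitellogenins summed to 286 and 283 CPM in *pry-1(mu38)* and to 3.99 and 14.2 CPM in N2. The other 9 markers of this kind summed to 18.6 and 21.0 CPM in *pry-1(mu38)* and to 8.60 and 18.7 CPM in N2, and only *msp-78* was at 0, in N2 replicate 1. The sum in N2 replicate 2 included *col-19* at 7.43 CPM, against 1.46 CPM in N2 replicate 1. Of the 7 of these that were tested, 5 had a positive and 2 a negative log2 fold change. At an unadjusted p under 0.05 in the QL test 3 were higher, beside the same 5.93% of all genes tested. The 10 embryo markers summed to 449 and 464 CPM in *pry-1(mu38)* and to 444 and 603 CPM in N2. Most of each sum was *skn-1*, at 350 and 360 CPM in *pry-1(mu38)* and 338 and 488 CPM in N2. Only 5 of the 10 had enough counts to be tested. At 0 were 2 and 3 of them in *pry-1(mu38)* and 3 and 0 in N2 replicates 1 and 2, so the sums do not measure embryo transcripts. The part of all these markers in the results below was not tested. In these bulk samples fewer cells of a type and less RNA per cell cannot be told apart.

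The trehalases *tre-2* and *tre-5* differed most between the strains, in opposite directions, and the remaining genes stayed within less than 2-fold. Of all genes tested, 16% differed by 2-fold or more. All 9 genes passed the filter on low counts, as did 15101 genes of the table. None of the 9 passed the QL test at an adjusted p under 0.05, where 0.00662% of all genes tested were called. At an unadjusted p under 0.05 there were 2, *tre-2* and *tre-5*, against a background of 14.2% of all genes tested. DESeq2 called *tre-2* higher and *tre-5* lower at an adjusted p under 0.05. It called 3.72% of the genes for which it gives an adjusted p, 1.38% higher and 2.34% lower. The exact test of edgeR called the same 2 genes, beside 1.93% of all genes tested, 0.967% higher and 0.967% lower. So did DESeq2 after quantile normalization, which called 3.83%, with 1.68% higher and 2.15% lower. The *pry-1(mu38)* range was above the N2 range in 2 genes and below it in 3, and the ranges overlapped in 4. Of all genes tested, 29.1% were above and 28% below, so that 57% had no overlap. The median log2 fold change of the 9 genes was -0.20, against -0.022 over all genes tested. An exact permutation test (two-sided) of 2 libraries against 2 has a smallest possible p of 0.333, and the p-values given here borrow their estimate of spread from all genes.

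**Figure D1:**
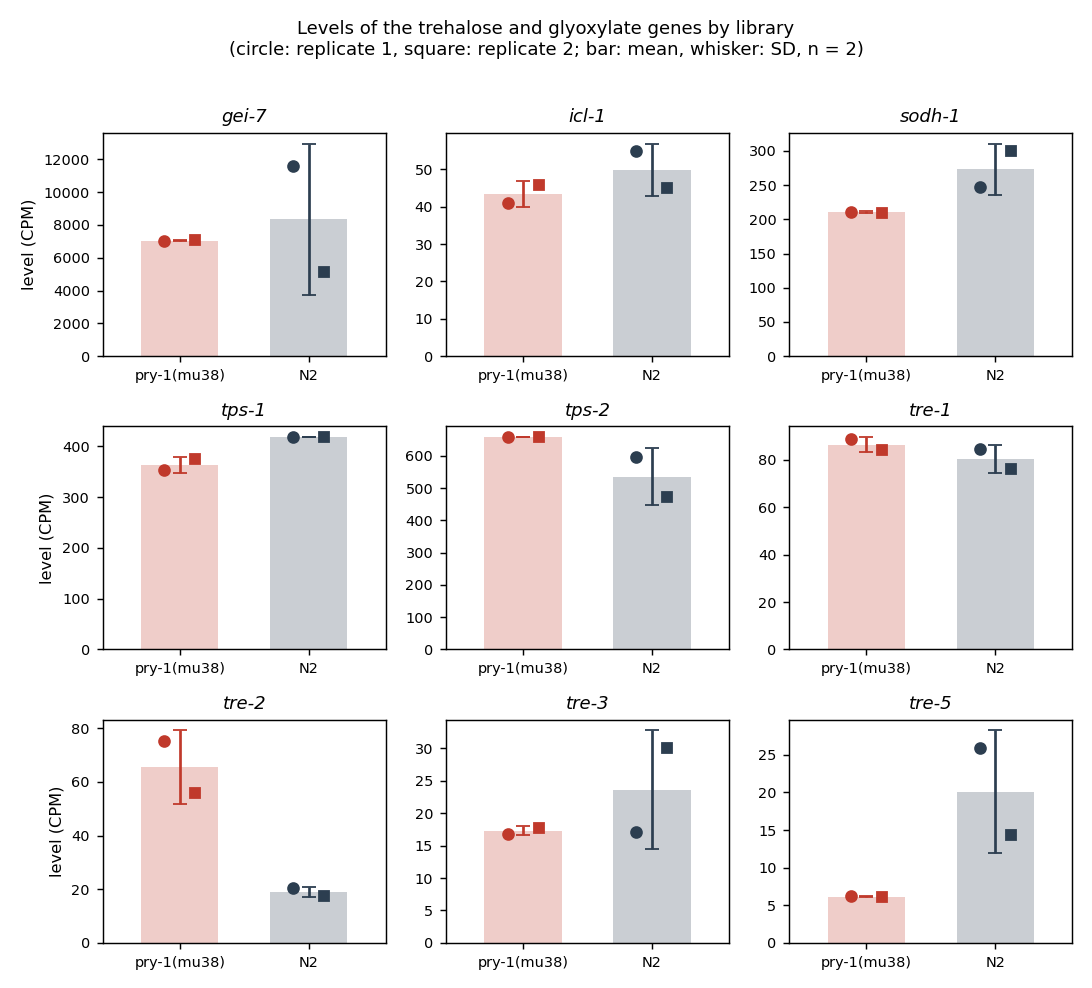
Level of each of the 9 genes in CPM (vertical axes, each from 0) in *pry-1(mu38)* and N2 larvae; circles are replicate 1, squares replicate 2, bars the mean and whiskers the SD of 2 libraries. The *tre-2* libraries of *pry-1(mu38)*, at 75.2 and 55.8 CPM, lie above those of N2, at 20.3 and 17.6 CPM, while for *gei-7* both *pry-1(mu38)* libraries lie between the N2 libraries.

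Trehalose synthesis begins with *tps-1* and *tps-2*, and both were well expressed. The level of *tps-1* was 353 and 375 CPM in *pry-1(mu38)*, against 419 and 418 CPM in N2. Both *pry-1(mu38)* libraries were therefore slightly below the N2 libraries, which were alike. Their log2 fold change, -0.20 with a standard error (SE) of 0.15, did not pass the QL test (adjusted p = 0.493). It ranged from -0.23 to -0.14 when single libraries were left out. The level of *tps-2* was 658 and 658 CPM in *pry-1(mu38)*, against 598 and 472 CPM in N2. Here the *pry-1(mu38)* libraries were alike and higher than the N2 libraries, which were 1.26-fold apart. This log2 fold change, 0.30 with an SE of 0.19, did not pass the QL test either (adjusted p = 0.432). Leaving out N2 replicate 2 gave 0.13, and leaving out N2 replicate 1 gave 0.51. The 2 synthases thus leaned in opposite directions, by small amounts that did not pass the test. The ratio of *tps-2* to *tps-1* counts was 1.87 and 1.76 in *pry-1(mu38)* and 1.43 and 1.13 in N2, while their summed level was 1011 and 1033 CPM in *pry-1(mu38)* and 1016 and 891 CPM in N2. The sums overlapped between the strains. The ratios did not, which follows from *tps-2* being higher and *tps-1* lower in both *pry-1(mu38)* libraries. The ratio adds no separate result and was not tested. In the annotation *tps-2* shares 24 exon bases with its neighbour *arl-3*.

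The trehalases differed more among themselves. The most counted of them, *tre-1*, had 88.6 and 84.1 CPM in *pry-1(mu38)* and 84.5 and 76.1 CPM in N2. These ranges overlapped (log2 fold change 0.10, SE 0.16, QL test, adjusted p = 0.717). For *tre-3* the levels were 16.8 and 17.8 CPM in *pry-1(mu38)* and 17.2 and 30.1 CPM in N2. N2 replicate 2 alone was high. With all libraries the log2 fold change was -0.45 (SE 0.31, QL test, adjusted p = 0.462), while leaving out N2 replicate 2 gave 0.0048 and leaving out N2 replicate 1 gave -0.77.

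The gene *tre-2* had 2422 and 1789 counts in *pry-1(mu38)*, or 75.2 and 55.8 CPM, against 556 and 584 counts in N2, or 20.3 and 17.6 CPM. Even the lower *pry-1(mu38)* library was well above N2, and the gap was larger than the spread within either strain. The level was 3.45-fold higher in *pry-1(mu38)* (log2 fold change 1.79, SE 0.22), which ranked 29 by p among all genes tested and did not pass the QL test after adjustment (adjusted p = 0.289). Fits without single libraries gave log2 fold changes of 1.57 to 2.0 and adjusted p from 0.00436 to 0.227 in the QL test. The lowest of these, and the only one under 0.05, was that without *pry-1(mu38)* replicate 2, a fit that called 3.23% of genes, 0.328% higher and 2.91% lower. It keeps a single *pry-1(mu38)* library, which is assumed to vary like the N2 libraries. DESeq2 gave an adjusted p of 1.28e-06 and edgeR's exact test 1.08e-05, within a range from 4.04e-07 to 0.386 over the alternatives.

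The gene *tre-5* showed the opposite. It had 200 and 196 counts in *pry-1(mu38)*, or 6.21 and 6.11 CPM, against 707 and 475 counts in N2, or 25.9 and 14.3 CPM. The *pry-1(mu38)* libraries were alike and lower than N2, although the N2 libraries were themselves 1.80-fold apart. The level in N2 was 3.26 times that in *pry-1(mu38)* (log2 fold change -1.71, SE 0.34, QL test, adjusted p = 0.345). Leaving out N2 replicate 1 gave -1.19. Leaving out N2 replicate 2 gave -2.08. Both of these fits keep a single N2 library, which is assumed to vary like the *pry-1(mu38)* libraries. DESeq2 gave an adjusted p of 0.00255 and edgeR's exact test 0.00934, within a range from 5.49e-05 to 0.423 over the alternatives.

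The make-up of the trehalase counts differed between the strains more than their sum did. Together with *tre-4*, which is not among the 9 genes, the trehalases summed to 198 and 175 CPM in *pry-1(mu38)* and to 158 and 146 CPM in N2. Of these counts, *tre-2* took 34.9% ± 4.25 in *pry-1(mu38)* and 12.5% ± 0.544 in N2 (SD, n = 2 libraries each). The share of *tre-5* was 3.31% ± 0.258 in *pry-1(mu38)* and 13.1% ± 4.62 in N2, and that of *tre-1* was 46.4% ± 2.41 in *pry-1(mu38)* and 52.9% ± 0.888 in N2. Shares of a sum depend on each other, and they restate the counts given above. The smaller share of *tre-1* is not a lower level, since its CPM overlapped between the strains (log2 fold change 0.10). There were 12.1 and 9.13 counts of *tre-2* for each count of *tre-5* in the *pry-1(mu38)* libraries, against 0.786 and 1.23 in the N2 libraries. This pair was singled out after its values were seen, and the ratio was not tested. The summed level of the synthases was 5.10 and 5.91 times that of the trehalases in *pry-1(mu38)* and 6.44 and 6.12 times in N2.

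**Figure D2:**
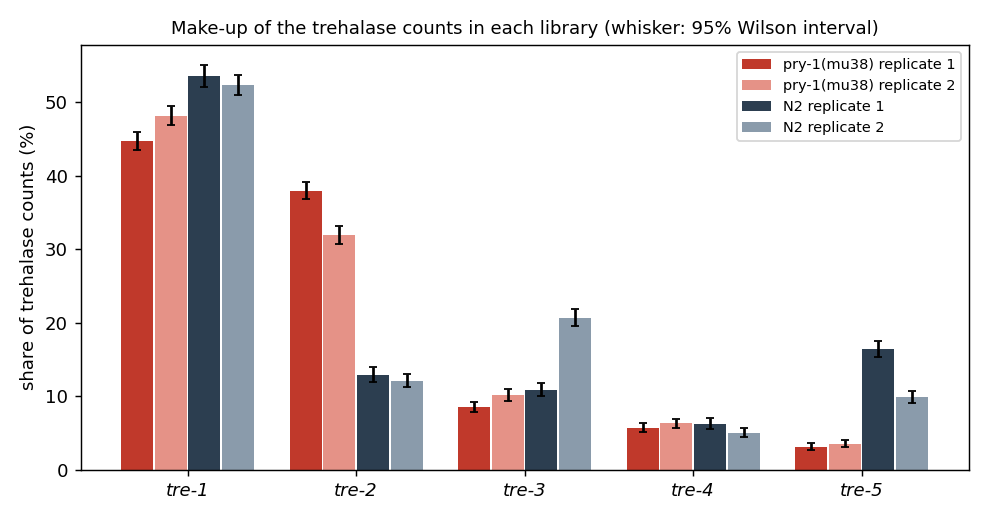
Share of each trehalase gene in all trehalase counts of a library, in percent (vertical axis), for the *pry-1(mu38)* and N2 libraries; whiskers are 95% Wilson intervals, which cover counting error only. In *pry-1(mu38)* the share of *tre-2* averages 34.9%, against 12.5% in N2, and that of *tre-5* averages 3.31%, against 13.1% in N2.

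The glyoxylate cycle gene *gei-7* was among the most counted genes of every library, with 225635 and 226822 counts in *pry-1(mu38)*, where it ranked 3 in both libraries, and 317252 and 168814 counts in N2, where it ranked 1 and 6. In CPM these were 7001 and 7070 in *pry-1(mu38)*, against 11604 and 5099 in N2. The *pry-1(mu38)* libraries were 1.01-fold apart and lay between the N2 libraries, which were 2.28-fold apart. A difference between the strains was not detectable in this gene (log2 fold change -0.25, SE 0.42, QL test, adjusted p = 0.751), and its sign depended on the N2 library used. Leaving out N2 replicate 2 gave -0.73 (QL test, adjusted p = 0.0385), and leaving out N2 replicate 1 gave 0.50 (QL test, adjusted p = 0.0549). Both fits keep a single N2 library, which is assumed to vary like the *pry-1(mu38)* libraries. Over the other alternatives the adjusted p of *gei-7* was from 0.753 to 1.0. Of all genes tested, 14.9% differed between the N2 libraries by more than *gei-7* did.

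The row named *icl-1* had 1319 and 1471 counts in *pry-1(mu38)*, or 40.9 and 45.8 CPM, and 1500 and 1491 counts in N2, or 54.9 and 45.0 CPM. These overlapped (log2 fold change -0.20, SE 0.18, QL test, adjusted p = 0.558). Counts of *gei-7* were from 113 to 212 times those of this row, and the ratio was not constant over the libraries.

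The alcohol dehydrogenase gene *sodh-1* had 211 and 209 CPM in *pry-1(mu38)*, against 247 and 300 CPM in N2. The *pry-1(mu38)* libraries were alike and lower than N2, by less than the test could call (log2 fold change -0.38, SE 0.17, QL test, unadjusted p = 0.0837, adjusted p = 0.356). Fits without single libraries gave -0.48 to -0.24. Its neighbour and relative *sodh-2*, which shares 70 exon bases with it on the opposite strand, had 6.86 and 6.39 CPM in *pry-1(mu38)* and 5.67 and 2.99 CPM in N2. The strand setting of the counts is not stated, and reads from the shared bases cannot be told apart.

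**Figure D3:**
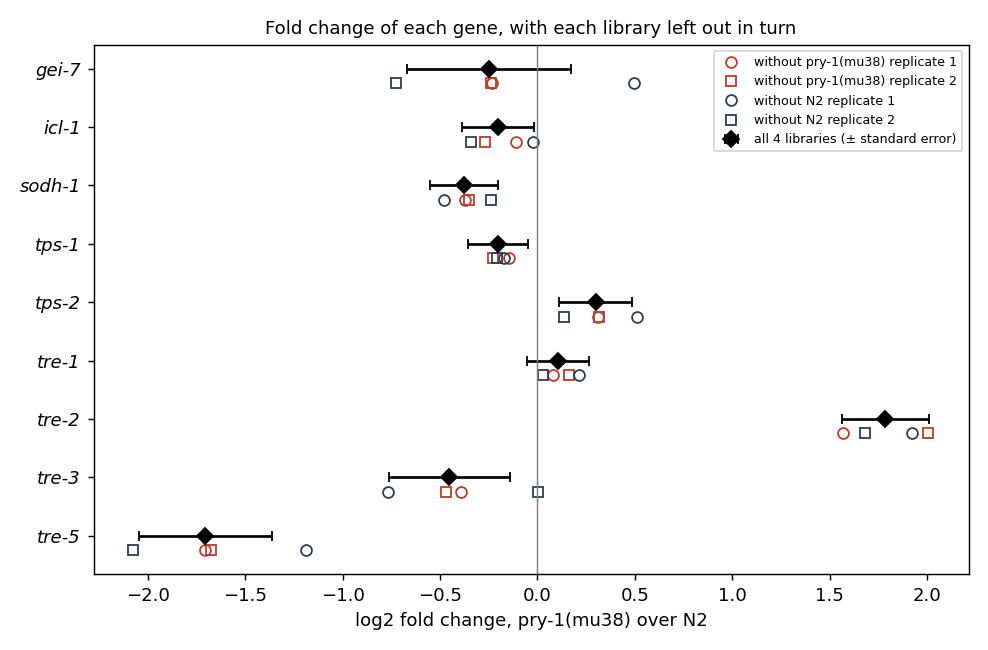
Log2 fold change of *pry-1(mu38)* over N2 (horizontal axis) for each of the 9 genes; diamonds with whiskers are the fit of all 4 libraries with its SE, and open symbols are the fits without 1 library. Values of *tre-2* stay from 1.57 to 2.0 and those of *tre-5* from -2.08 to -1.19, while *gei-7* runs from -0.73 to 0.50 and *tre-3* from -0.77 to 0.0048.

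Levels of different genes were compared per kilobase of annotated exon, since longer transcripts give more reads. On this scale *gei-7*, taken with the length of the gene now named *icl-1*, had 2247 ± 15.4 CPM per kilobase in *pry-1(mu38)* and 2667 ± 1469 in N2 (SD, n = 2 libraries each). In *pry-1(mu38)* the order below it was *tps-2* at 171, *sodh-1* at 160, *tps-1* at 83.5, *tre-1* at 39.1, *tre-2* at 30.5, *tre-3* at 8.78 and *tre-5* at 2.90 CPM per kilobase. In N2 it was *sodh-1* at 208, *tps-2* at 139, *tps-1* at 96.0, *tre-1* at 36.3, *tre-3* at 12, *tre-5* at 9.47 and *tre-2* at 8.85. The last 3 of these overlapped in N2, with *tre-2* at 9.48 and 8.22, *tre-5* at 12.2 and 6.76 and *tre-3* at 8.72 and 15.3 CPM per kilobase in replicates 1 and 2. In *pry-1(mu38)* the same 3 genes did not overlap, with *tre-2* at 35.0 and 26.0, *tre-3* at 8.53 and 9.03 and *tre-5* at 2.92 and 2.88.

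The 9 genes also differed in how far the N2 libraries lay apart. The log2 ratio of N2 replicate 1 over N2 replicate 2 was 1.19 for *gei-7*, 0.85 for *tre-5* and -0.81 for *tre-3*. For *tps-1* it was 0.0014, and 99.8% of the genes tested differed by more. Between the *pry-1(mu38)* libraries the largest absolute log2 difference was that of *tre-2*, at 0.43, and the others were at 0.16 or below.

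**Figure D4:**
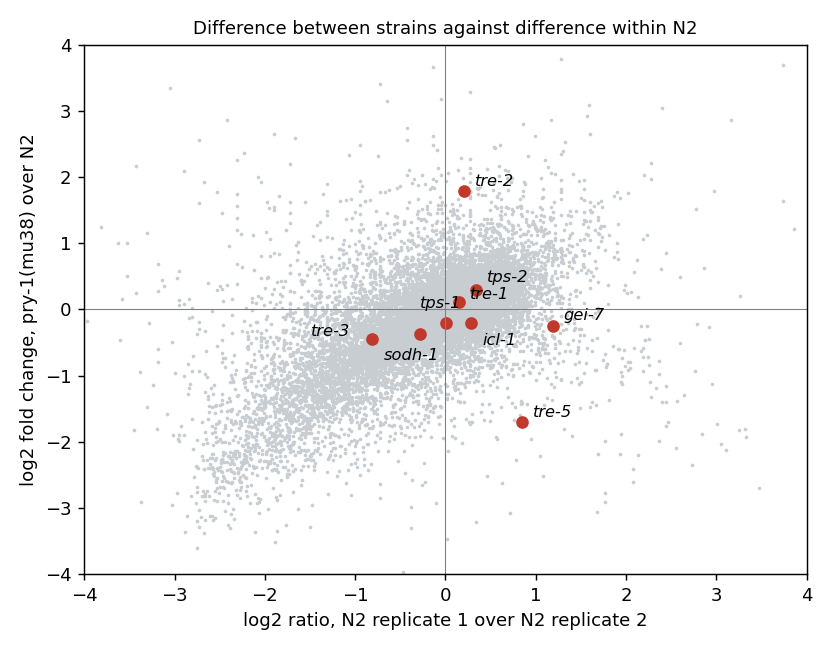
Log2 fold change of *pry-1(mu38)* over N2 (vertical axis) against the log2 ratio of N2 replicate 1 over N2 replicate 2 (horizontal axis) for the genes tested, with the 9 genes in red; both axes use the N2 libraries, and 25 genes lie outside the range shown. The gene *tre-2* lies at 1.79 with an N2 ratio of 0.21, while *gei-7* lies at -0.25 with an N2 ratio of 1.19.

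Of 11 genes that work beside these enzymes 9 had a row, 6 with a positive and 3 with a negative log2 fold change, and none passed the QL test at an adjusted or an unadjusted p under 0.05. Their median was 0.0065. In *tre-4* and *sodh-2* the *pry-1(mu38)* range was above that of N2 and in *pck-1* below it, and the strains overlapped in 6. The phosphatase gene *gob-1*, which completes trehalose synthesis, had 125 and 117 CPM in *pry-1(mu38)* and 137 and 106 CPM in N2, at a log2 fold change of -0.0090 (SE 0.19). The trehalase *tre-4* had 11.4 and 11 CPM in *pry-1(mu38)* and 9.88 and 7.31 CPM in N2, and shares 51 exon bases with *efn-3* on the opposite strand. Phosphoenolpyruvate carboxykinase, which leads from oxaloacetate towards glucose, is encoded by *pck-1* and *pck-2*. The level of *pck-1* was 732 and 766 CPM in *pry-1(mu38)* and 971 and 1034 CPM in N2 (log2 fold change -0.42, SE 0.16, QL test, unadjusted p = 0.0501, adjusted p = 0.345). That of *pck-2* was 2540 and 2445 CPM in *pry-1(mu38)* and 2609 and 1887 CPM in N2, so the strains overlapped.

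Elsewhere in glucose synthesis, pyruvate carboxylase, *pyc-1*, had 1197 and 1189 CPM in *pry-1(mu38)* and 1400 and 912 CPM in N2. Fructose-1,6-bisphosphatase, *fbp-1*, had 336 and 343 CPM in *pry-1(mu38)* and 385 and 291 CPM in N2. In both genes, as in *gei-7*, the *pry-1(mu38)* libraries lay between N2 replicate 1, which was higher, and N2 replicate 2. The hexokinase *hxk-3* and the glucose phosphate isomerase *gpi-1* also overlapped, at log2 fold changes of 0.00038 (SE 0.17) and -0.19 (SE 0.20). Their levels were 158 and 145 CPM for *hxk-3* and 287 and 268 CPM for *gpi-1* in *pry-1(mu38)*, against 164 and 139 CPM and 272 and 364 CPM in N2.

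Wider lists from the metabolism of sugar and from fasting gave some genes at an unadjusted p under 0.05 and none at an adjusted p under 0.05 in the QL test. Of all genes tested, 5.93% were higher and 8.23% lower at an unadjusted p under 0.05. Among 8 tested genes of glycogen synthesis and breakdown 2 were higher, the acid alpha-glucosidase relatives *aagr-1* and *aagr-4*, at log2 fold changes of 1.24 (SE 0.23) and 1.01 (SE 0.31); the list had a median of 0.21. None of 19 TCA cycle genes was at an unadjusted p under 0.05, and their median was 0.16. The lowest p were those of the isocitrate dehydrogenase *idh-2*, at 0.73 (SE 0.30), and of the succinate dehydrogenase subunit *sdhd-1*, at 0.32 (SE 0.19). Among 12 aldehyde dehydrogenases 3 were higher, with a median of 0.15, led by *alh-5* at 1.2 (SE 0.19) and *alh-13* at 0.82 (SE 0.30).

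The list of the fasting response had rows for 8 of its 15 genes, with a median of -0.45. Of these, 2 were lower in *pry-1(mu38)* at an unadjusted p under 0.05, *acs-2*, an acyl-CoA synthetase of fat oxidation, and *ech-9*, an enoyl-CoA hydratase. The level of *acs-2* averaged 24.5 CPM in *pry-1(mu38)* and 66.8 CPM in N2, a log2 fold change of -1.45 (SE 0.17). That of *ech-9* averaged 8.4 CPM in *pry-1(mu38)* and 26.2 CPM in N2, at -1.64 (SE 0.63). The N2 libraries of *ech-9* were far apart, at 13.35 CPM in replicate 1 and 38.97 CPM in replicate 2. N2 replicate 1 was only slightly above the higher *pry-1(mu38)* library, so the size of the *ech-9* difference rests largely on N2 replicate 2. The study named *acs-2* and *ech-9* from these samples, so they are not independent evidence of a direction. In sign, 2 genes of the fasting list were positive and 6 negative. The positive ones were *hacd-1*, at 0.71 (SE 0.55), and *fmo-2*, at 0.96 (SE 0.76), and in both the N2 libraries were far apart. The genes ran in both directions, so the median of this list gives no direction of the fasting response. Among 11 genes of DAF-16 and larval arrest, with a median of 0.0001, 1 was higher, *dod-3*, a gene downstream of DAF-16, at 1.41 (SE 0.47); the next lowest p was shared by *cki-1*, which encodes a cyclin-dependent kinase inhibitor, at 0.37 (SE 0.23) and *lea-1*, a protein of desiccation tolerance, at -0.58 (SE 0.36). Among 17 genes of replication and growth 1 was higher and 3 were lower, with a median of 0.28. The 2 lowest p belonged to *fib-1*, the nucleolar protein fibrillarin, at -0.69 (SE 0.18) and to *rpoa-2*, a subunit of RNA polymerase I, at -0.52 (SE 0.15). The higher gene was *mcm-6*, at 0.48 (SE 0.18). In sign, 12 genes of the list were positive and 5 negative, the negative ones being *fib-1*, *rpoa-1*, *rpoa-2*, *nst-1* and *dao-5*. Among 11 genes of the osmotic response, a stress in which trehalose is made, 1 was higher and 4 were lower, with a median of -0.61. The higher gene was *hmit-1.1*, at 1.22 (SE 0.39). The lower genes included *osm-11*, at -1.01 (SE 0.19), and the aquaporin *aqp-8*, at -0.61 (SE 0.17). The list pools genes of differing roles, so its median gives no direction of the osmotic response.

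**Figure D5:**
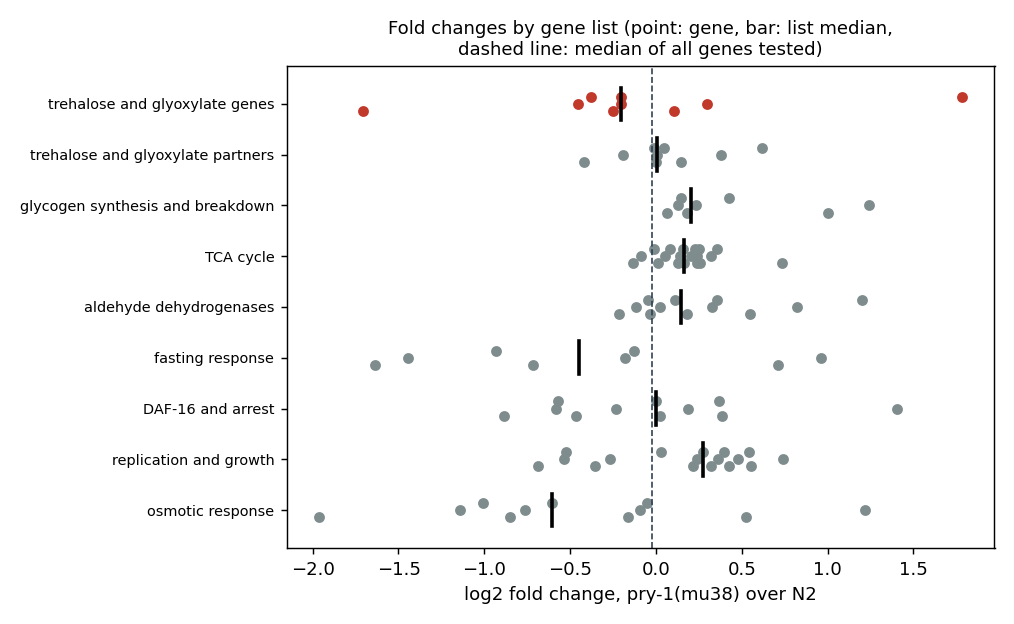
Log2 fold change of *pry-1(mu38)* over N2 (horizontal axis) of the genes tested in each list (rows), with the 9 trehalose and glyoxylate genes in red; points are genes, black bars list medians, and the dashed line the median of all genes tested, -0.022. The 9 genes spread from -1.71 to 1.79 around a median of -0.20, and the 9 tested partner genes from -0.42 to 0.62.

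The genes whose levels followed these most closely over the 4 libraries were found by the root mean square distance of log2 levels, each centred on its own mean. For *tps-1* they were *K02E10.1*, *nhr-4* and *bag-1*, at distances of 0.0084, 0.0090 and 0.010, and 876 genes lay within 0.1. For *sodh-1* they were *M60.4*, *C11D9.1* and *D1081.4*, at 0.0097, 0.013 and 0.013, with 572 genes within 0.1. For the row *icl-1* they were *ttll-4*, *F11A10.7* and *F58B3.4*, at 0.0084, 0.018 and 0.020, with 500 genes within 0.1. For *gei-7* they were *F28C10.3*, *srs-2* and *tsp-2*, at 0.019, 0.022 and 0.047, with 23 genes within 0.1. The distance is not scaled, so these counts depend on how far apart the libraries of a gene lie. They do not compare how rare the patterns are. With 4 libraries such nearness describes these libraries and carries no test.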

How the data were processed

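The authors deposited a table of read counts per gene for the 4 libraries, in whole numbers and without normalization. According to the methods and the series description, reads were trimmed with cutadapt and trimgalore and mapped to ce6 with Bowtie or the Burrows-Wheeler Aligner, and eXpress, quantile normalization and DESeq followed. The annotation and strand setting of the counts are not given in the sources used here. The table ends in 5 summary lines, which were left out: reads outside genes were 5.32% to 6.75% of a library, ambiguous reads 0.556% to 0.620% and reads placed at several positions, which undercount near-identical genes, 8.04% to 11.6%.

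All genes were fitted with edgeR 4.0.16 in R 4.3.3 (filterByExpr with a minimum count of 10, TMM, quasi-likelihood test, Benjamini-Hochberg threshold 0.05). Intervals of shares are 95% Wilson intervals and cover counting error only. Replicates are biological according to the methods, and their strain and number come from the titles. Rows were matched by name or, where a newer symbol is used, by sequence name; where both a symbol and its sequence name had rows, the sequence name decided. Lengths are merged exons of WBcel235, with *gei-7* and *sodh-1* taken as the genes now named *icl-1* and *adh-1*; no coordinates are given because the builds differ. Named genes are the 9 members, their partners, the 2 lowest p of each other metabolic or stress list and the 3 nearest patterns. A tie in p, and further genes of the fasting, replication and osmotic lists that show both directions, were added. Genes of marker lists are given as sums, with single genes named where a sum rests largely on them. The members and lists were chosen with earlier results of these data known. Alternatives were DESeq2 1.42.0, edgeR's exact test, no TMM, quantile normalization with DESeq2, other filters, a stricter threshold, a replicate block and each library left out. The fitting code was tested on simulated counts with known fold changes, at lower dispersions than those of the data, so the calibration of the tests on these data was not checked. A motif search in promoters was not run. Figures were drawn with matplotlib 3.10.9.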

Additional observations from a re-analysis of the deposited data

How the results depend on the processing

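In sign, 7 of the 9 genes kept their direction under each of the 11 alternatives, and 2 did not. For *gei-7*, dropping N2 replicate 1 gave a log2 fold change of 0.50 and dropping N2 replicate 2 gave -0.73; for *tre-3* the same omissions gave -0.77 and 0.0048. The number of genes called depended on the test. The quasi-likelihood test called 1 gene of all tested and none of the 9. DESeq2 called 486 and 2, edgeR's exact test 292 and 2, and quantile normalization followed by DESeq2 511 and 2. The quasi-likelihood test called 0 genes without the filter on low counts, at an adjusted p under 0.05. With the filter, and at an adjusted p under 0.0005, it also called 0 genes. With each library left out in turn, from 0 to 512 genes were called, and from 0 to 2 of the 9; the calls were *gei-7* and *tre-5* in the fit that lacks N2 replicate 2, and *tre-2* in that lacking *pry-1(mu38)* replicate 2. The median log2 fold change of the 9 genes ranged from -0.24, with *pry-1(mu38)* replicate 2 left out, to -0.023, with N2 replicate 1 left out. The cause of these differences was not tested. With a replicate block the test called 2327 genes and 2 of the 9, *tre-2* at an adjusted p of 4.04e-07 and *tre-5* at 5.49e-05; the deviations of same-numbered libraries correlated at 0.486 across genes. The labels give the libraries a shared number and nothing else that pairs them. With 2 libraries a strain, changes of the size seen in *tps-2* or *sodh-1* could not be separated from the spread between the N2 libraries.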
